A study of Amphimedon queenslandica and Mnemiopsis leidyi and Nematostella vectensis with 36 samples.

Results

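The sponge protein called NRF in the sample labels was tested in 2 forms, the full length protein and its isolated DNA binding domain (DBD), on 2 kinds of genomic DNA from the marine sponge Amphimedon queenslandica. Of the 36 samples of the series, 4 hold these experiments, and their peak lists contain 3044 of the 120443 peaks called over the 16 lists with peaks. Within each kind of DNA, a peak was classed as shared when it overlapped a peak of the other form by at least 1 bp on the same contig, and otherwise as full length only or domain only. Merging the 4 lists gave 1999 separate NRF regions.

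DAP-seq stands for DNA affinity purification sequencing. A transcription factor carrying the HaloTag, which allows the protein to be pulled down, is incubated with adapter-ligated genomic DNA, and the fragments it retains are sequenced. Both forms of NRF carried the HaloTag and were made by in vitro translation. The source of the DNA was larvae at the swimming stage, 0 h, collected from individuals at Heron Island, and shearing gave fragments with a mean of 200 bp. For DAP-seq the DNA was used as isolated, called native here. For ampDAP-seq it was copied by 11 cycles of PCR before the incubation, called amplified here, and in both protocols the purified DNA was amplified for 20 cycles. Each form on each kind of DNA was 1 library. Its control was the library made with the empty HaloTag on the same kind of DNA, so both forms on native DNA share 1 control and both forms on amplified DNA share another.

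NRF1 (nuclear respiratory factor 1), the vertebrate protein whose name the label resembles, binds a GC-rich palindrome as a dimer through its DNA binding domain and acts at the promoters of nuclear genes for mitochondrial proteins. Its binding in mammalian cells is sensitive to methylation of the CpG dinucleotides in that palindrome. PCR copies carry no cytosine methylation. The regions outside a DNA binding domain often hold activation and interaction surfaces, and comparing the whole protein with the isolated domain asks which binding in the test tube occurs with the domain by itself.

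Usable fragments numbered 3168602 with the full length protein and 2498007 with the domain on native DNA, and 2824872 and 2664847 on amplified DNA. By the down-sampling option in the file headers, the full length native library was reduced to 2626764 fragments. The depths used in peak calling would then lie between 2498007 and 2824872 fragments. There was no replicate library, so no difference between the 2 forms could be tested, and all comparisons are descriptions of these 4 libraries. The 95% Wilson intervals given with shares cover counting error only. Fold enrichment is the authors' value for each peak, the ratio of the fragment pileup at the summit to the background that the control library gives for that place. Fold enrichment was not on a common scale between libraries.

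On native DNA, nearly everything the domain bound was also in the list of the full length protein, while the full length protein had many peaks that the domain list lacked. The full length protein gave 769 peaks and the domain 335. Of these, 304 peaks of each list formed pairs, 465 were full length only and 31 were domain only. The shared class held 39.5% of the full length peaks (36.1 to 43.0) and 90.7% of the domain peaks (87.2 to 93.4). Every shared peak had exactly 1 partner. The share of full length peaks depended on the weak ones, and it was 67.1% with −log10 q of at least 5, 82.8% with a fold enrichment of at least 5, and 84.2% with the full length list cut to the length of the domain list.

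On amplified DNA both lists were longer and they overlapped less. The full length protein gave 1439 peaks and the domain 501, of which 333 formed pairs. The remaining 1106 full length peaks and 168 domain peaks had no partner. The shared class held 23.1% of the full length peaks (21.0 to 25.4) and 66.5% of the domain peaks (62.2 to 70.5). The order of the 2 kinds of DNA in the share of paired domain peaks turned with the threshold. With −log10 q of at least 5 it was 92.8% on native and 87.9% on amplified DNA, and with a fold enrichment of at least 5 it was 87.5% and 98.4%. With the full length list cut to the length of the domain list, 60.5% of the amplified peaks of either form were shared.

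Few peaks lay near the threshold of the overlap rule. The smallest overlap of a shared pair was 103 bp on native and 87 bp on amplified DNA, and the median overlaps were 202.5 and 176 bp. Just outside the threshold, the nearest full length only peak lay 307 bp from a domain peak on native DNA and 99 bp on amplified DNA. Within 500 bp of the other list lay 4 of the 465 native and 12 of the 1106 amplified full length only peaks. For domain only peaks these numbers were 0 of 31, which allows up to 9.68%, and 4 of 168. Many unpaired peaks lay on a contig that did hold a peak of the other form, at 176 of 465 full length only peaks on native DNA and 506 of 1106 on amplified DNA, and the median gap to it was 48575 and 53907 bp.

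The strength of a peak moved with its class. A shared peak needs a place that passes the cutoff in both lists, so weak places fall more often into the unpaired classes by construction. On native DNA the median fold enrichment in the full length list was 8.24 for shared peaks (quartiles 6.28 to 11.5) and 3.41 for full length only peaks (2.88 to 4.14). In the domain list it was 8.38 for shared peaks (6.19 to 11.7) and 4.74 for domain only peaks (4.11 to 6.33). The strongest full length only peak reached 11.2-fold, and the strongest domain only peak 19.5-fold.

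On amplified DNA the unpaired full length peaks had higher values. Shared peaks had a median of 20.8-fold in the full length list (13.8 to 28.8) and 6.86-fold in the domain list (5.09 to 8.89). Full length only peaks had a median of 6.12-fold (3.76 to 9.18), and 674 of the 1106 reached at least 5-fold. With the full length list cut to the length of the domain list, the median of full length only peaks was 12.7-fold on amplified and 5.19-fold on native DNA. Among the 465 native full length only peaks, 41 did so. Domain only peaks on amplified DNA had a median of 3.47-fold (2.85 to 4.15), none of the 168 exceeded 5.87-fold, and 4 reached 5-fold.

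The fold enrichment at which a full length peak gained a domain partner differed between the 2 kinds of DNA. Fold values were not on a common scale between libraries, so equal bins need not hold equal strength. At the shared pairs the full length value was a median of 3.05-fold higher than the domain value on amplified and 1.01-fold on native DNA. The part of this offset in the shares was not tested. On native DNA, 79.6% of the 196 full length peaks between 5- and 10-fold had a partner (73.4 to 84.6). On amplified DNA, 4.52% of the 465 full length peaks in that range did (2.97 to 6.81). Between 10- and 20-fold the shares were 98.9% of 90 peaks on native DNA and 35.3% of 331 on amplified DNA (30.4 to 40.6), and from 20-fold on they were 100% of 17 and 91.8% of 196. In the domain lists, 92.1% of the native and 97.9% of the amplified peaks between 5- and 10-fold had a full length partner.

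**Figure D1:**
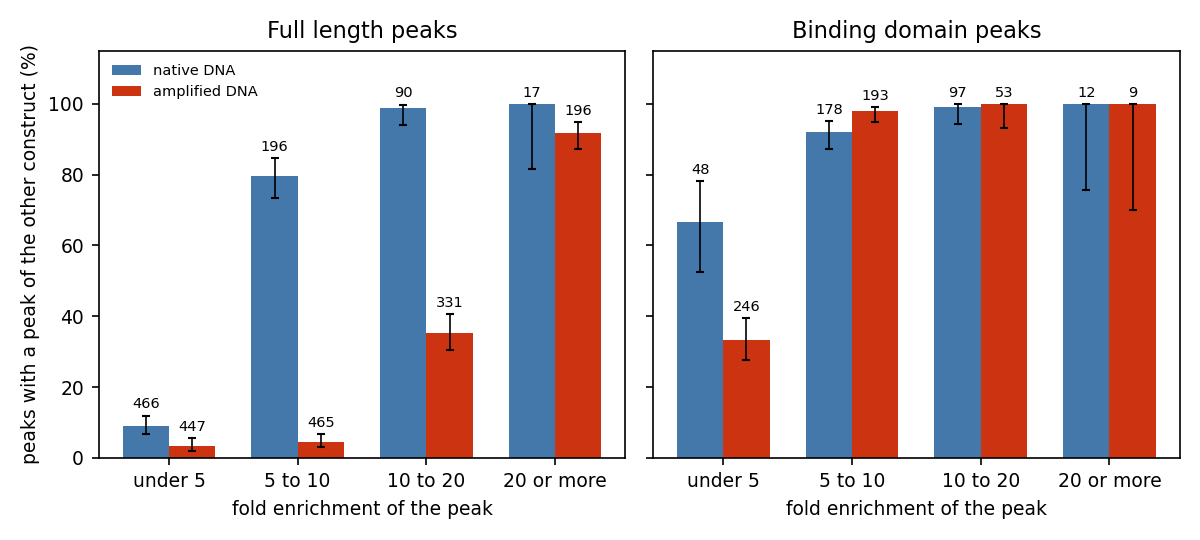
Share of the peaks of each list that overlap a peak of the other form (y axis, percent), by the fold enrichment of the peak (x axis), for full length peaks (left) and binding domain peaks (right) on native (blue) and amplified (red) DNA. Numbers above the bars count the peaks in the bin and error bars are 95% Wilson intervals. Between 5- and 10-fold, 79.6% of native and 4.52% of amplified full length peaks had a domain partner. Fold enrichment was not on a common scale between libraries.

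The strongest peaks were in both lists. Ranked by −log10 q, the authors' significance value per peak, the first 100 full length peaks were all shared on native and on amplified DNA, as were the first 100 domain peaks on amplified DNA, and a count of 0 unpaired peaks in 100 allows a share of up to 3%. In the native domain list, 99 of the first 100 were shared. With the full length list divided by −log10 q into 4 equal parts, from strongest to weakest, the shared share was 99.5%, 52.1%, 5.73% and 0.521% on native DNA. On amplified DNA it was 75.8%, 11.7%, 1.11% and 3.89%, so the weakest part there held more shared peaks than the part above it.

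The 14 shared pairs in that weakest part of the amplified full length list ranked between 1154 and 1412 of 1439. Their median fold enrichment was 3.56 with the full length protein and 3.55 with the domain, and their median summit offset was 21.5 bp. None of the 14 recurred on native DNA, and 0 of 14 allows a share of up to 21.4%.

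At the shared pairs, the 2 forms had like fold enrichment on native DNA and unlike values on amplified DNA. The median log2 ratio of domain to full length fold enrichment was −0.02 on native DNA (95% interval of the median over pairs −0.06 to 0.02; quartiles −0.22 to 0.16). The domain had the higher value in 142 pairs and the full length protein in 162, so 46.7% of the 304 native pairs had the higher value with the domain. On amplified DNA the median log2 ratio was −1.61 (−1.65 to −1.56; quartiles −1.79 to −1.34), a 3.05-fold higher value for the full length protein. The domain was higher in 9 of the 333 amplified pairs, 2.7%. The native lists had unlike lowest backgrounds, 2.67 fragments (full length) and 2.08 (domain), beside 2.27 and 2.24 in the amplified lists. The native full length value was the highest, although down-sampling would put that library below the depth of both amplified ones. Whether its background was set at the reduced depth, and the part of the unlike backgrounds in the native ratio, was not tested.

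The ratio shifted along the range of strength by the full length −log10 q. That value rises with the full length fold enrichment, which divides the ratio, so the sorting by itself favours low ratios in strong parts. In weak parts a pair was listed only where the domain peak also passed the cutoff. How much of the shift came from this sorting was not tested. Over 4 equal parts of the shared pairs, from strongest to weakest by the full length −log10 q, the median log2 ratio was −0.18, 0.00206, 0.05 and 0.08 on native DNA. In the strongest part the interval was −0.22 to −0.10 and the domain had the higher value in 18 of 76 pairs, and in the third it was −0.03 to 0.13 with 44 of 76. On amplified DNA it was −1.73, −1.69, −1.59 and −1.26. The 9 amplified pairs with the domain higher all fell in the weakest part, at full length ranks 978 to 1412, where the full length median was 3.49-fold.

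**Figure D2:**
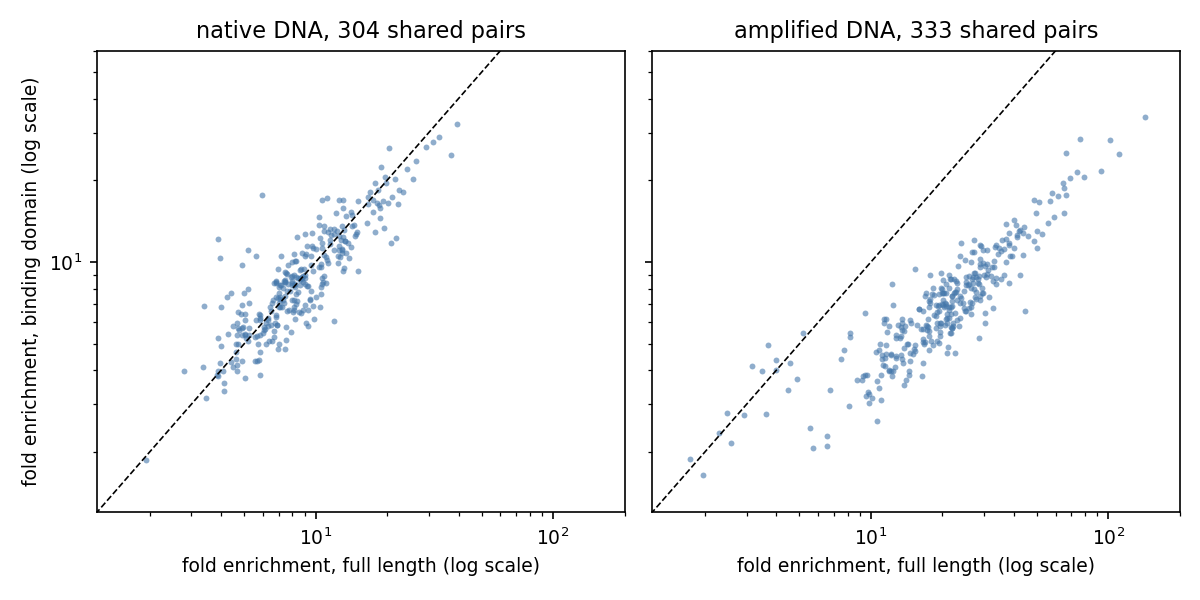
Fold enrichment of the full length peak (x axis, log scale) and of the overlapping binding domain peak (y axis, log scale) for the 304 shared pairs on native DNA (left) and the 333 on amplified DNA (right), 1 point per pair. The dashed line marks equal values. Native points lie on both sides of it, 142 above and 162 below, and 324 of the 333 amplified points lie below it.

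Single pairs departed from the native pattern in both directions. At contig 13335, positions 863 to 1182, the native fold enrichment was 3.87 with the full length protein and 12.2 with the domain, while the pileups were close, at 71 and 66 fragments. The local background under those summits was 17.6 fragments in the full length list and 4.51 in the domain list. At contig 13273, positions 4397 to 4878, the values were 5.95-fold and 17.7-fold, with backgrounds of 13.6 and 2.51 fragments. In both pairs with the highest native ratio, the background and not the pileup was the part that differed in that direction. Both native lists used the same control library, so these ratios need not reflect a difference in binding between the forms. Why that control gave unlike backgrounds there was not tested.

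The lowest native ratios had another make-up. At contig 13484, positions 195281 to 195530, the full length protein had 12.0-fold from 80 fragments and the domain 6.08-fold from 38. At contig 12646, positions 22493 to 22743, the full length protein had 20.7-fold from 75 fragments and the domain 11.7-fold from 46, and on amplified DNA the same place had 101-fold and 28.2-fold. Here the pileup was lower with the domain. The lowest ratios on amplified DNA were at contig 3023, positions 253 to 625, with 44.8-fold against 6.59-fold, and at contig 9317, positions 443 to 680, with 28.5-fold against 5.25-fold.

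In 170 of the 1999 merged regions all 4 lists had a peak, and there the 2 forms can be followed across both kinds of DNA. The median fold enrichment on native DNA was 10.6 with the full length protein (quartiles 7.43 to 14.2) and 10.6 with the domain (7.92 to 13.9). On amplified DNA it was 22.0 with the full length protein (17.1 to 30.8) and 7.44 with the domain (5.74 to 9.58). The 2 forms were thus level on native DNA, and on amplified DNA the full length value was the higher one in each of the 170 regions.

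From native to amplified DNA the full length value was higher by a median of 1.06 on the log2 scale (0.95 to 1.22) and higher in 162 of the 170 regions. The domain value had a median change of −0.54 (−0.65 to −0.43) and was lower in 137 regions. In 129 regions the full length value was higher and the domain value lower on amplified DNA, and the opposite occurred in 0 of 170, which allows up to 1.76%. Region by region, the domain's change minus the full length change had a median of −1.56 (−1.65 to −1.51) and lay below 0 in all 170, between −3.53 and −0.70. Each library entered with its own depth and each kind of DNA with its own control, and with 1 library per form and DNA a property of a single library and a property of the form cannot be told apart.

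**Figure D3:**
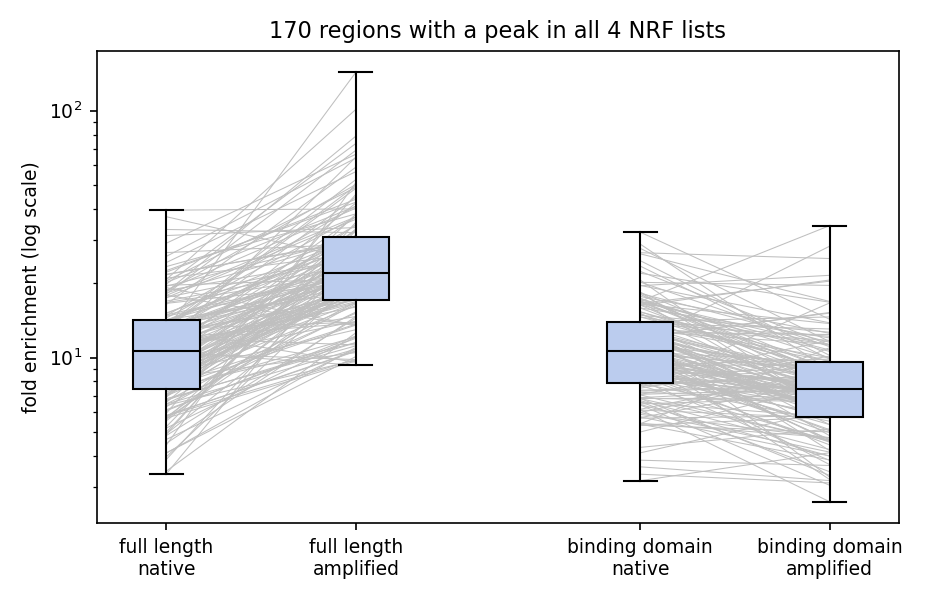
Fold enrichment (y axis, log scale) in the 170 regions with a peak in all 4 lists. Boxes show quartiles and medians, whiskers the lowest and highest values, and grey lines join the values of 1 region. The medians were 10.6 (full length) and 10.6 (domain) on native DNA, and 22.0 and 7.44 on amplified DNA.

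The strongest regions show this order one by one. At contig 13273, positions 8426 to 8754, the peak ranked first in both native lists, at rank 4 in the amplified full length list and at rank 2 in the amplified domain list. Its fold enrichment was 13.1 (full length) and 12.4 (domain) on native DNA and 13.9 and 5.82 on amplified DNA. All 4 summits lay between positions 8596 and 8599. Its local background in the native full length list was 35.6 fragments, against a median of 4.93 over that list, so its rank rested on a pileup of 478 fragments more than on its fold enrichment.

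Contig 12812 held strong neighbouring regions. At positions 38342 to 38919 the native values were 31.2-fold (full length) and 27.7-fold (domain), and the amplified values 33.6-fold and 11.6-fold. This peak was the widest of the native full length list, at 578 bp. At positions 40172 to 40597 the native values were 23.4-fold and 18.2-fold and the amplified ones 38.2-fold and 11.5-fold. The summits there stood at 40423 and 40421 on native DNA and at 40370 and 40367 on amplified DNA, so they paired by DNA and not by form.

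Other leading regions differed more between the 2 kinds of DNA. At contig 13405, positions 87125 to 87445, the second-ranked region of both native lists, the values were 21.7-fold and 20.2-fold on native and 29.8-fold and 11.1-fold on amplified DNA. At contig 13384, positions 69394 to 69721, they were 19.8-fold and 19.6-fold on native and 73.7-fold and 21.5-fold on amplified DNA. The first-ranked region of both amplified lists, at contig 13038, positions 59929 to 60240, had 143-fold with the full length protein and 34.2-fold with the domain, and ranked 42 and 18 in the native lists with 13.0-fold and 16.9-fold.

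The second-ranked amplified full length region, at contig 13373, positions 64453 to 64803, had 111-fold with the full length protein and 25.1-fold with the domain. Neither form had a native peak there, and no peak of another factor overlapped it on either kind of DNA.

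The classes recurred on the other kind of DNA to unequal degrees, which changed with the threshold. Over whole lists, 50.7% of the native full length peaks, 92.2% of the native domain peaks, 27.9% of the amplified full length peaks and 38.5% of the amplified domain peaks overlapped a peak of either form on the other DNA. Of the 304 native shared peaks, 291 did so, 95.7% (92.8 to 97.5). Of the 465 native full length only peaks 99 did, 21.3% (17.8 to 25.2), and of the 31 native domain only peaks 18 did, 58.1% (40.8 to 73.6). The lists of the other DNA had not entered the classes and had another control. With a fold enrichment of at least 5 the recurrence was 97.6% for native shared, 69.2% for native full length only and 88.9% for native domain only peaks, and with −log10 q of at least 5 it was 49.7% for native full length only peaks. With the full length list cut to the length of the domain list it was 30.2% for native domain only peaks.

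From the amplified side, 187 of 333 shared peaks recurred on native DNA, 56.2% (50.8 to 61.4). Among full length only peaks it was 215 of 1106, 19.4% (17.2 to 21.9). Among domain only peaks it was 6 of 168, 3.57% (1.65 to 7.57). The domain only class of amplified DNA thus had the lowest recurrence of the 6 classes. With the full length list cut to the length of the domain list, recurrence was 43.9% for amplified full length only and 1.52% for amplified domain only peaks, and with a fold enrichment of at least 5 it was 0 of 4 for the latter.

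Recurrence did not mean recurrence in the same class. Native shared peaks were shared again on amplified DNA in 170 of 304 cases, 55.9%, and became full length only there in 120, 39.5%. Of the native full length only peaks, 83 of 465 were full length only again, 17.8%, 11 were shared, 5 were domain only and 366 had no amplified NRF peak. Of the 31 native domain only peaks, 12 were full length only on amplified DNA, 6 were shared and 13 had no NRF peak. None was domain only on both kinds of DNA, and 0 of 31 allows a share of up to 9.68%, while 0 of 168 on the amplified side allows up to 1.79%.

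Of the 31 native domain only places, 13 thus had no full length peak on either kind of DNA. Each of the 18 native domain only peaks that recurred did so in the amplified full length list, and 6 of them also in the amplified domain list, where 91.9% and 52.8% of all native domain peaks did. On the amplified side, 891 of the 1106 full length only peaks, 162 of the 168 domain only peaks and 146 of the 333 shared peaks had no NRF peak on native DNA.

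By merged region, the most frequent pattern was the amplified full length list alone, with 891 of 1999 regions, followed by the native full length list alone, with 366. The domain lists alone held 162 regions on amplified and 13 on native DNA. At least 2 lists shared 567 regions, 28.4%, and 408 regions, 20.4%, had an NRF peak on both kinds of DNA. No region was held by the 2 domain lists without a full length list. Only places with a peak in both domain lists could show this. Such places held 177 native domain peaks, so the 0 is out of far fewer than 1999 regions.

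**Figure D4:**
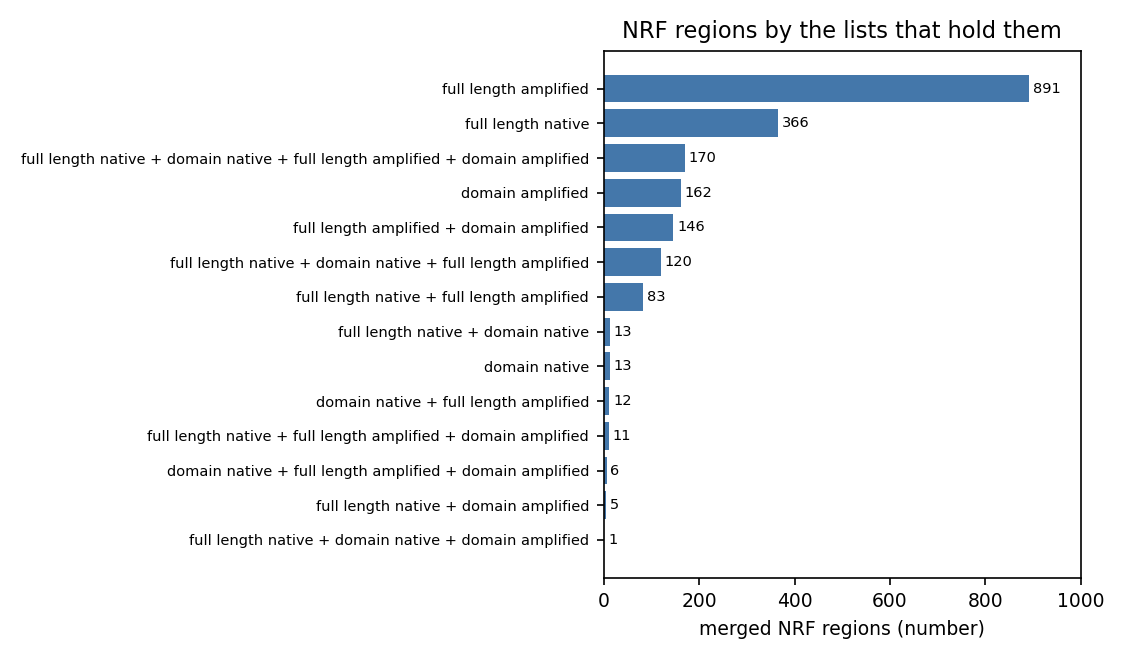
Number of merged NRF regions (x axis) for each combination of the 4 lists (y axis). The amplified full length list alone held 891 of the 1999 regions, and all 4 lists held 170.

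Strength moved with these patterns, which the cutoffs of the lists define. Regions in the amplified full length list alone had a median of 5.49-fold, and those in the native full length list alone 3.27-fold. The 83 regions that were full length only on both kinds of DNA had medians of 4.64-fold on native and 7.42-fold on amplified DNA. The 146 regions shared on amplified DNA and without a native peak had medians of 19.7-fold with the full length protein and 6.31-fold with the domain. The 120 regions shared on native DNA that lost the domain peak on amplified DNA had native medians of 7.24-fold (full length) and 6.84-fold (domain) and an amplified full length median of 10.2-fold.

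Recurrence was also compared within the 4 equal parts of each full length list by −log10 q, which narrows the range of strength but does not match it. The strongest amplified part ran from 6.51- to 143-fold, and no amplified full length only peak exceeded 32.4-fold. In the second of the 4 equal parts of the native full length list, 94 of 100 shared peaks and 54 of 92 full length only peaks, 58.7%, recurred on amplified DNA. In the third it was 7 of 11 shared and 36 of 181 full length only peaks, 19.9%. On the amplified side, in the strongest part, 174 of 273 shared peaks, 63.7%, and 48 of 87 full length only peaks, 55.2%, recurred on native DNA. In the second part 13 of 42 shared, 31.0%, and 113 of 318 full length only peaks, 35.5%, did. In the third part it was 0 of 4 shared and 45 of 355 full length only peaks, and in the weakest 0 of 14 and 9 of 346.

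The full length only peaks with the highest −log10 q show how the classes crossed. At contig 2805, positions 609 to 863, the native full length peak of 11.2-fold ranked 146 of 769 and had no native domain peak, while on amplified DNA both forms had a peak, of 27.1-fold and 7.99-fold. At contig 13463, positions 131161 to 131352, and at contig 13364, positions 80896 to 81077, the native full length peaks of 6.37-fold and 7.46-fold recurred in the amplified full length list alone, at 5.19-fold and 11.7-fold. On amplified DNA the highest full length only peaks were at contig 13500, positions 493293 to 493529, with 14.3-fold, and at contig 13101, positions 11037 to 11444, with 21.2-fold. Both had peaks of the 2 forms on native DNA, at 7.99-fold and 7.25-fold in the former and 8.22-fold and 8.09-fold in the latter, with the full length value first.

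The next 3 regions were those with the highest −log10 q, in effect that of the amplified peak, among the regions that were full length only on both kinds of DNA, so their native values were not the highest of that class, and contig 13364 above had a higher one. At contig 12858, positions 15883 to 16024, the full length fold enrichment was 5.49 on native and 29.3 on amplified DNA. At contig 13440, positions 245727 to 245896, it was 5.19 and 15.2. At contig 13351, positions 156007 to 156217, it was 4.72 and 22.2. No other factor overlapped the first of these, and EGR peaks overlapped the other two on both kinds of DNA.

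Among the native domain only peaks, contig 13500, positions 3700 to 4139, stood out with 19.5-fold and rank 36 of 335. Both forms had a peak there on amplified DNA, of 18.9-fold (full length) and 6.94-fold (domain). At contig 13104, positions 413 to 589, the native domain peak of 9.43-fold was likewise accompanied by both amplified peaks, of 22.3-fold and 7.72-fold. At contig 13405, positions 84942 to 85176, the native domain peak of 9.22-fold had an amplified full length peak of 10.6-fold. The local background under the native domain only peaks was low, with a median of 3.01 fragments against 5.01 for the shared domain peaks, and 7 of the 31 stood over at least 5 fragments, 22.6%. Its part in the class was not tested.

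The highest amplified domain only peaks were weak and isolated. They lay at contig 11107, positions 4120 to 4269, with 4.14-fold and rank 217 of 501, at contig 13175, positions 40177 to 40345, with 4.07-fold, and at contig 13051, positions 79 to 221, with 4.55-fold. None of the 3 overlapped another NRF peak. A peak of another factor overlapped each of them on amplified DNA, GLI in the first, SP41 in the second, and EGR and SP41 in the third.

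Summits of the 2 forms coincided closely. The median distance between paired summits was 6 bp on native DNA (5 to 7; quartiles 2 to 12.25) and 7 bp on amplified DNA (5 to 8; quartiles 3 to 13). Within 10 bp lay 213 of 304 native pairs, 70.1%, and 226 of 333 amplified pairs, 67.9%. Within 50 bp lay 97.0% and 95.8%. The signed offset, domain minus full length, had a median of 0 bp on native and −1 bp on amplified DNA, and it was positive in 145 and negative in 125 native pairs and positive in 142 and negative in 170 amplified pairs.

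Summits of 1 form on the 2 kinds of DNA lay as close together or slightly farther apart. For the full length protein the median distance between native and amplified summits was 6 bp over 384 pairs, with 68.5% within 10 bp. For the domain it was 9 bp over 177 pairs, with 55.4% within 10 bp. In the 170 regions of all 4 lists the 4 summits spanned a median of 14 bp (quartiles 8.25 to 24), and the span was at most 25 bp in 129 of them. The offset was smaller at strong pairs, with medians of 4.5 bp in the stronger and 6 bp in the weaker 152 native pairs, and 5 and 8 bp among the 166 stronger and 167 weaker amplified pairs.

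Few pairs had distant summits. More than 100 bp separated 2 native and 4 amplified pairs. On native DNA the largest offset, 183 bp, was at contig 2919, positions 206 to 539, where the summits stood at 400 (full length) and 217 (domain) in peaks of 4.42-fold and 4.28-fold. The other native pair was strong. At contig 12646, positions 27347 to 27743, the summits stood at 27595 and 27492 in peaks of 33.0-fold and 28.8-fold, and on amplified DNA they were at 27593 and 27595. The largest amplified offsets were 167 bp at contig 13471, positions 320190 to 320482, and 162 bp at contig 13477, positions 284247 to 284402, in peaks of 4.13-fold or less.

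Domain peaks were mostly narrower than the full length peaks they overlapped. The median width of shared peaks on native DNA was 239.5 bp in the full length list and 213 bp in the domain list, and the paired difference, domain minus full length, had a median of −23 bp (−29 to −17). The domain peak was the wider one in 75 of 304 pairs, 24.7%. On amplified DNA the medians were 238 and 181 bp, the paired difference was −49 bp (−53 to −46), and the domain peak was wider in 18 of 333 pairs, 5.41%. The domain peak lay wholly inside the full length peak in 145 native pairs, 47.7%, and in 289 amplified pairs, 86.8%. Median pileups of the shared peaks were 51 fragments (full length) and 49 (domain) on native DNA, and 134 and 42 on amplified DNA. The part of the pileup in these widths was not tested.

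Unpaired peaks of either form were short. Full length only peaks had a median width of 172 bp on native and 169 bp on amplified DNA, and domain only peaks 160 and 161 bp. The shortest peak in each list equalled the fragment size set by the caller, 140 and 138 bp for the full length protein and the domain on native DNA and 133 and 139 bp on amplified DNA. Width also moved with strength, since the wider shared class was the stronger one in all 4 lists.

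Where lists without a common control could be set against each other, the strength of one form followed the strength of the other. Across 187 peak pairs, the log2 fold enrichment of the full length protein on native DNA and of the domain on amplified DNA had Pearson r = 0.59 and Spearman rho = 0.59. Across 308 pairs, that of the domain on native and of the full length protein on amplified DNA had r = 0.65 and rho = 0.64. With the same form on both kinds of DNA the values were r = 0.65 and rho = 0.62 for the full length protein (384 pairs) and r = 0.62 and rho = 0.59 for the domain (177 pairs). These are descriptions over sites, which share the larval genome and its mappability and base composition and are not independent replicates.

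The other factors with lists on the same DNA were YY1, EGR, GLI and SP41. YY1, EGR, GLI and SP proteins belong to families of zinc finger transcription factors in animals, and GLI proteins act in Hedgehog signalling. Their lists on one kind of DNA share the empty HaloTag control with the NRF lists, so binding to the same place and a shortfall of the control there cannot be told apart. Among all NRF peaks, 54% of the native full length, 57.6% of the native domain, 50.7% of the amplified full length and 58.7% of the amplified domain peaks overlapped a peak of at least 1 of these factors.

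Shared peaks are counted in the full length list in what follows, unless the domain list is named. By class, native shared peaks overlapped another factor in 181 of 304 cases, 59.5% (53.9 to 64.9), full length only peaks in 234 of 465, 50.3% (45.8 to 54.8), and domain only peaks in 15 of 31, 48.4% (32.0 to 65.2). On amplified DNA the shares were 203 of 333, 61.0% (55.6 to 66.0), for shared peaks, 526 of 1106, 47.6% (44.6 to 50.5), for full length only peaks and 92 of 168, 54.8% (47.2 to 62.1), for domain only peaks. The intervals of shared and full length only peaks, which cover counting error only, were apart on amplified DNA and overlapped on native DNA. With −log10 q of at least 5, another factor overlapped 59.5% of native shared and 57.2% of native full length only peaks. On amplified DNA the shares were then 60.8% and 43.2%.

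Each of the 4 factors overlapped a larger share of shared than of full length only peaks on both kinds of DNA, and differences between factors were not tested. Shared peaks were also wider, with medians of 239.5 against 172 bp on native and 238 against 169 bp on amplified DNA. The part of width in an overlap counted from 1 bp was not tested. On native DNA, EGR peaks overlapped 24.0% of shared (19.6 to 29.1) and 11.8% of full length only peaks (9.20 to 15.1), beside 16.6% over all native full length peaks. YY1 overlapped 30.9% and 25.2% of these classes, beside 27.4% over the whole list, GLI 16.1% and 14.2%, beside 15%, and SP41 31.2% and 24.7%, beside 27.3%. On amplified DNA SP41 peaks overlapped 39.0% of shared (34.0 to 44.4) and 25.2% of full length only peaks (22.8 to 27.9), beside 28.4% over all amplified full length peaks. EGR overlapped 12.0% and 10.2% of these classes there, beside 10.6%, YY1 30.6% and 26.6%, beside 27.5%, and GLI 13.8% and 10.1%, beside 11%.

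The amplified domain only class had its own mixture. GLI peaks, which come from a GLI DBD construct, overlapped 37 of the 168, 22.0% (16.4 to 28.9). Beside this stood 16% over all amplified domain peaks and 12.9% of the shared domain peaks. EGR peaks overlapped 7 of the 168, 4.17%, beside 9.38%, SP41 peaks 20.2%, beside 32.5%, and YY1 peaks 30.4%, beside 30.3%. When only lists from native DNA were used, which have another control and had not entered these classes, the share of amplified domain only peaks with any other factor was 26.8% (20.7 to 33.9), with GLI at 9.52%, beside 43.3% and 13% over all amplified domain peaks.

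**Figure D5:**
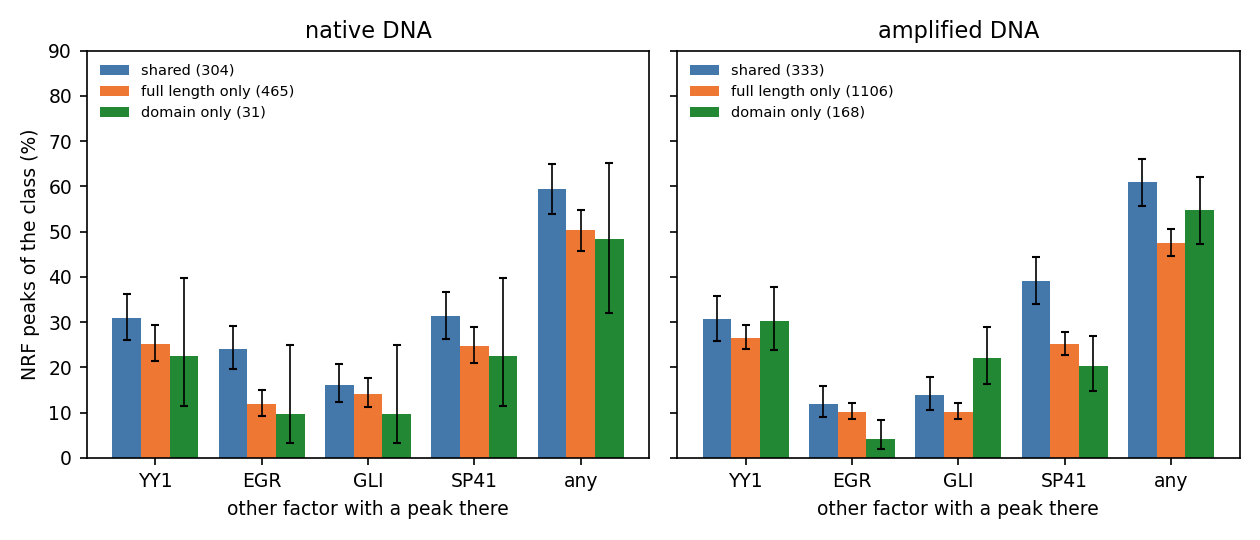
Share of NRF peaks of each class (y axis, percent) that overlap a peak of YY1, EGR, GLI, SP41 or any of them on the same kind of DNA (x axis), for native (left) and amplified (right) DNA. Error bars are 95% Wilson intervals and the legends count the peaks of each class. Shared peaks are those of the full length list. Among single factors, the intervals of shared and full length only peaks were separate for EGR on native DNA and for SP41 on amplified DNA, 24.0% against 11.8% and 39.0% against 25.2%.

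Against lists from the other DNA the order of shared and full length only peaks was the same. Native shared peaks overlapped another factor's amplified peak in 58.9% of cases (53.3 to 64.3) and native full length only peaks in 40.4% (36.1 to 45.0). Amplified shared peaks overlapped a native peak of another factor in 52.6% (47.2 to 57.9) and amplified full length only peaks in 38.2% (35.4 to 41.1). Over all peaks of these lists the shares were 47.7% on the native and 41.6% on the amplified side. Of the native shared and full length only peaks, SP41 on amplified DNA overlapped 39.1% and 17.8%, beside 26.3% over the whole list, and EGR 12.2% and 5.16%, beside 7.93%.

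Within the 4 parts by −log10 q, which do not match strength peak by peak, the difference was uneven. In the second of the 4 parts of the native full length list, another factor overlapped 46.0% of the shared peaks (36.6 to 55.7) and 53.3% of the full length only peaks (43.1 to 63.1). In the strongest part of the amplified full length list it was 63.4% of shared and 47.1% of full length only peaks, and in the second part 40.5% and 41.5%. In the third part it was 3 of 4 shared peaks and 40.3% of the full length only peaks. The weakest part had 10 of 14 shared peaks and 60.7% of 346 full length only peaks (55.5 to 65.7), the highest share of that class. Co-binding also moved with the local background from the control. On amplified DNA, 73.2% of shared peaks over at least 5 background fragments overlapped another factor and 46.8% of those over fewer, and the shares for full length only peaks were 61.4% and 36.1%. The part of the background in the overlap with other factors was not tested.

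Set beside the rest of the series, each of the 4 factors was less frequent at native NRF peaks of all 3 classes than among the native regions without NRF. Of the 35877 merged native regions without NRF, 39.5% held YY1, 34.9% EGR, 24.1% GLI and 38.1% SP41, and 27.9% held 2 or more of these. At least 2 other factors overlapped 29.9% of native shared and 19.4% of native full length only peaks, beside 23.5% of all native full length peaks. On amplified DNA these shares were 27.9% and 17.7%, beside 20.1% of all amplified full length peaks and 21.8% of the 37787 regions without NRF. Of these amplified regions, 48.3% held YY1, 16% EGR, 12.2% GLI and 49.9% SP41. In the amplified domain list, GLI overlapped 22.0% of domain only peaks (16.4 to 28.9) and 12.9% of shared peaks (9.73 to 16.9). The regions without NRF hold at least 1 of the other factors by construction, so their shares are a scale and not a test.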

How the data were processed

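Peak lists of 4 NRF libraries, and of 12 libraries of the other factors for co-binding, were analysed. The authors ran MACS2 2.1.2 on each library by itself, per the file headers, with paired fragments, a q cutoff of 0.05, an effective genome size of 166679601 bp, the empty HaloTag library as control and the larger library down-sampled to the smaller. The submitters' processing notes for the whole series name Bowtie, Bowtie2, BS-Seeker2, fastp, MACS2 and CASAVA 1.8.2. The aligner of these libraries and the genome build are not given in the sources used here. Random down-sampling and the cutoff affect which weak peaks are listed, and PCR multiplies fragments.

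Per the file headers, the pileup is a signal of coverage at the summit, in fragments. Fold enrichment, per the file headers, is that pileup's ratio to a local background. For each peak the authors deposited −log10 of its p-value and of its q-value. Deposited starts, ends, lengths and summits are in bp, counted from 1.

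Peaks were intersected at an overlap of at least 1 bp. The local background was computed from the deposited pileup and fold enrichment with the pseudocount of 1 that MACS2 adds to both, and log2 ratios were taken of fold enrichments. Intervals of medians are 95% order-statistic intervals over peaks, which are not replicates. No test was run, with 1 library per group. The correlation of strength was given only for lists with different controls, although it was planned for all shared pairs. The planned results on sequence, motifs and nearest genes were not run, because no genome was used here, and RefSeq gene names were of no use since the lists hold no gene identifiers. The classes, lists and alternatives were chosen with earlier results of these data known. Named regions were the 3 highest by −log10 q of each class and DNA, the 3 in all 4 lists with the best worst rank, the 3 full length only on both kinds of DNA with the highest −log10 q on either, and the 2 pairs with the largest offset and with the highest and lowest ratio on each DNA. Other settings tried were stricter thresholds, other overlap rules, lists of equal length and other choices of co-bound lists. The overlap code recovered all planted overlaps in 20 of 20 simulated pairs of lists and equalled bedtools 2.31.1 in 52 of 52 real pairs. Python 3.11.15, numpy 2.4.6, pandas 2.3.3, scipy 1.17.1 and matplotlib 3.10.9 were used.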

Additional observations from a re-analysis of the deposited data

Results flagged for a closer look

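Opposite directions on the 2 kinds of DNA drew attention to the following values, and with 1 library per form and DNA none was tested. Over whole lists, the log2 ratio of the domain's to the full length protein's median fold enrichment was 0.93 on native and −0.57 on amplified DNA. The whole lists differ in how many weak full length peaks they hold, while at the shared pairs the ratio was near 0 on native DNA. The log2 ratio of the median widths over whole lists was 0.107 on native and −0.0728 on amplified DNA, although the domain peak was the narrower one at most shared pairs of both kinds. In the 170 regions of all 4 lists, the median log2 ratio of amplified to native fold enrichment was 1.06 with the full length protein and −0.54 with the domain.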

How the results depend on the processing

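No paired analysis was possible because each form and kind of DNA had 1 library. Of 110 alternative values, 70 stayed within the interval of the main value or, for counts of regions, within 1.5 times it, 40 moved and 0 reversed. Most of these values are shares, widths, distances or counts, which cannot change sign, so the 0 does not speak to the order of classes. That order did turn in places. Another factor overlapped 54.8% of amplified domain only and 61.0% of amplified shared peaks, but 67.4% and 60.8% with −log10 q of at least 5. Reciprocal overlap of 50%, summits within 50 bp, peaks within 500 bp and lists without regions of at least 4 factors moved none of the values recomputed with them, nor did the domain constructs of the other factors or a merge within 500 bp.

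With −log10 q of at least 5 in both lists, the shared share of full length peaks was 67.1% on native and 26.2% on amplified DNA, and that of amplified domain peaks 87.9%. Recurrence was then 49.7% for native full length only, 82.6% for native domain only and 22.3% for amplified full length only peaks. Another factor overlapped 57.2% of native and 43.2% of amplified full length only peaks and 67.4% of amplified domain only peaks. Beside these stood 59.5% of native and 60.8% of amplified shared peaks. Amplified full length only peaks had a median width of 173 bp. With that threshold in the classed list alone, the shared shares were 67.6% and 93.7% on native (full length, domain) and 27.2% and 88.4% on amplified DNA.

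With a fold enrichment of at least 5, 82.8% of native full length and 98.4% of amplified domain peaks were shared, beside 87.5% of native domain peaks, so the order of the 2 kinds of DNA in the domain lists turned. Recurrence was 97.6% for native shared, 69.2% for native full length only, 88.9% for native domain only and 22.8% for amplified full length only peaks, and 0 of 4 for amplified domain only peaks. With the full length list cut to the length of the domain list, the shared class held 84.2% of the native and 60.5% of the amplified peaks of either form. Full length only peaks then had medians of 5.19-fold and 187 bp on native and 12.7-fold and 202.5 bp on amplified DNA. Another factor overlapped 56.6% of the native full length only peaks, beside 60.3% of the native shared peaks. Recurrence was 84.8% for native shared, 30.2% for native domain only, 43.9% for amplified full length only and 1.52% for amplified domain only peaks.

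With other factors from the other DNA, co-binding was 40.4% for native full length only, 52.6% for amplified shared, 38.2% for amplified full length only and 26.8% for amplified domain only peaks. With −log10 q in place of log2 fold enrichment, r was 0.758 (full length native, domain amplified) and 0.741 (domain native, full length amplified). The cause of these moves was not tested, other than that stricter thresholds and shorter lists hold fewer weak peaks.

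The share of native full length peaks with a partner thus changed with the threshold, from the main 39.5% to 82.8% at 5-fold. How far under the cutoff an unlisted place stands is not analysed here. There is no replicate library.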

Other observations

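NRF regions held by all 4 lists lay in groups along the contigs more often than NRF regions at large. Another NRF region stood within 5000 bp of 65 of the 170, 38.2% (31.3 to 45.7), beside 305 of all 1999, 15.3%. For regions of the amplified full length list alone it was 12.2%, for those of the native full length list alone 12.3%, and for those of the amplified domain list alone 12.3%. The 83 regions that were full length only on both kinds of DNA had 22.9% (15.2 to 33.0). Another NRF region was on the same contig for 81.2% of the regions in all 4 lists and 68.2% of all regions, and contig length, which the lists do not give, was not used here.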
